A study of Mus musculus with 32 samples.

Results

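The cytosolic ribosomal protein genes were taken from the deposited gene list by symbol, as Rpl or Rps followed by a digit together with Rplp0, Rplp1, Rplp2 and Rpsa, leaving out symbols with -ps and the Rps6k kinase genes. The rule found 86 of 31053 genes. By name, 43 encode large-subunit proteins, 31 small-subunit proteins and 3 the acidic stalk, and these 77 are called structural genes here. Another 8 are paralogs or like genes, and Rps19bp1 encodes a binding partner of the small-subunit protein Rps19, not a ribosomal protein. The rule does not take Fau and Rack1, whose products are also ribosomal and which stand in a list of translation genes used below.

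The data are single-cell RNA counts from the stromal vascular fraction of epididymal fat of C57BL/6 mice, the cells left when adipocytes are removed. There are 4 groups with 1 library each: mice on normal diet (ND) or high fat diet (HFD) for 16 weeks, each labelled WT or CD169-DTR. In CD169-DTR mice the Siglec1 locus, which encodes CD169 of tissue macrophages, drives the receptor for diphtheria toxin, and every group, WT included, received diphtheria toxin for 7 days. CD45+ and CD45- cells were sorted with much of the F4/80hi cells and the Ly6Chi monocytes gated out, and were mixed 1:1, so shares of cell types are set by the sort. How many mice stand behind a library was not given, and the 32 deposited records are 8 sequencing runs of each library.

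Ribosomes are built from a large and a small subunit, and most of their proteins are needed in equal numbers. The messages of these proteins are among the most abundant in a cell. Many of these messages begin at a C followed by a run of pyrimidines, the 5′ terminal oligopyrimidine (TOP) tract, through which TOR signalling and Larp1 control their translation as a group. Ribosome assembly in the nucleolus uses a separate set of factors, and proteins left over when assembly fails bind Mdm2 and stabilise p53.

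The start of the message was read for the 66 genes that have an entry in the RefSeq promoter table (GRCm38.p6); 20 have none there. A C at the annotated start followed by at least 4 C or T bases on the gene's strand stood in 14 of the 66 (21.2%) against 560 of 19407 genes with an entry (2.89%), and allowing the tract to begin within 5 bases of the start gave 30 (45.5%) against 21.7% of all genes. The tract at the start was in 4 of 16 other translation genes (25%), in 0 of 25 ribosome biogenesis genes and in 0 of 69 mitochondrial ribosomal protein genes. Of the 13 genes that were lower past the fold in macrophages on normal diet, below, 11 have an entry and 5 of those the tract at one of their starts. The 13 were picked by these same ratios, and without the barcodes shared between libraries, below, only Rpl37a and Rps29 stayed past the fold. Rpl37a lacks the tract at its start and Rps29 has no entry. Keeping each shared barcode in the library where it had the most UMIs left 13 genes lower. A link between tract and level was not tested. The windows that follow run 15 bases before to 15 bases from the annotated start, 5′ to 3′, with the tract in capitals. They show 4 of these 13 genes, with and without the tract, and the pair whose ratios were highest in fibroblasts and macrophages for labels. Rps27 (chr3:90213634-90213663, minus strand) and Rps21 (chr2:180257364-180257393, plus strand, 1 of its annotated starts) hold the tract. Rpl37a (chr1:72711245-72711274, plus strand) and Rpl39 (chrX:37085208-37085237, minus strand) do not hold it at the annotated start, nor do the assembly-linked paralog Rpl7l1 (chr17:46782642-46782671, minus strand) and Rps19bp1 (chr15:80264292-80264321, minus strand). Rpl39 has a run of 5 bases that begins within 5 bases of that start, so it is among the 30 genes of the wider search.
Rps27: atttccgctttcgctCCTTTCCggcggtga
Rps21: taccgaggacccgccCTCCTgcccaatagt
Rpl37a: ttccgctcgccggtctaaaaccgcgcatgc
Rpl39: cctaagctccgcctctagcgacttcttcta
Rpl7l1: gtgaggctgcgcaagcgcagtagctgaagc
Rps19bp1: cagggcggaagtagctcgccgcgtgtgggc
A match to these letters is a description of the window and was not tested for any effect on a message.

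The libraries held 4014 to 6696 barcodes, and 19340 cells were kept (3597 to 5639 a library, with a median of 6159 to 9156 unique molecular identifiers, UMIs, each a counted molecule). Of these, 14777 could be put in a cell class by markers (74.4% to 79.4% a library), and 93.2% of them lay in a cluster of the same class when cells were clustered without the ribosomal genes. Siglec1 went against the labels: it had 5 UMIs in the library labelled ND WT, 113 in ND CD169-DTR, 51 in HFD WT and 190 in HFD CD169-DTR, or 0.139, 3.50, 1.12 and 3.02 CPM (UMIs of a gene scaled to a fixed total of UMIs). Depletion would lower it, so every group name below means only "the library labelled" so. With 1 library a group there is no replicate and no test; intervals are 95% and cover counting error only, and a gene is called past the fold where its CPM differed by more than 1.5 times.

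Libraries also shared cell barcodes, which touches the macrophage results most. Of 22343 barcode sequences, 298 occurred in more than 1 library, 157 of them in both ND libraries, where the copies had a median of 614 UMIs in ND WT and 32170.0 in ND CD169-DTR. Among macrophages, 39 of 151 cells in ND WT (median 675 UMIs) and 41 of 144 in ND CD169-DTR (median 41176 UMIs, 60.8% of that class's UMIs) carried such barcodes, against 28 of 483 in HFD WT and 12 of 404 in HFD CD169-DTR. Values without them are given beside the results for labels that they moved most.

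Together the 86 genes took 25329281 of 176798304 UMIs of kept cells (14.3%). Among the highest levels over all kept cells were those of Rplp1, a stalk protein, at 3667 CPM, Rpl13 at 3494 CPM, Rpsa, also known as the laminin receptor, at 3258 CPM and Rps29 at 3021 CPM. The 3 stalk genes Rplp0, Rplp1 and Rplp2 made up 5.57% of ribosomal UMIs, and the paralogs with Rps19bp1 0.791%. Rpl10l, a paralog known from testis, had 0 UMIs, Rpl3l, known from muscle, 52, and Rpl39l, known from testis, 107; these low counts were exceptions within the family. One UMI is counted per molecule at its 3′ end, so these levels are not scaled by gene length. The values of Rpl13a (31446 UMIs) and of Rps27rt (5646 UMIs) are uncertain, since near-identical copies can draw off their reads.

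The share of UMIs taken by ribosomal protein messages differed far more by cell type than by library. It was highest in B cells, at 32.5% in ND WT, 33.7% in ND CD169-DTR, 31.5% in HFD WT and 34.1% in HFD CD169-DTR. Group 2 innate lymphoid cells followed at 27% to 28.9%, T cells at 24.9% to 27.5%, type 1 dendritic cells at 23.4% to 29.3% and NK cells at 22.3% to 26.3%, and these neighbours overlapped over libraries. The other dendritic cells had lower medians, migratory ones with 17.5% to 23%, type 2 with 19.8% to 23.7% and plasmacytoid ones with 19.6% to 22.3%. Monocytes had 16.9% to 18.2% and macrophages 11.1% to 15.5%, so that no library of either reached the lowest library of B, T, NK or group 2 innate lymphoid cells.

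Stromal cells were lower. Fibroblasts and progenitors had 11.6% in ND WT, 10.5% in ND CD169-DTR, 10.7% in HFD WT and 10.2% in HFD CD169-DTR, mesothelial cells 11.5% to 16.4% and vascular endothelial cells 8.14% to 8.82% in the 3 libraries with at least 20 of them. Plasma cells, which secrete antibody, had 7.38% in the only library with enough cells, against 31.5% to 34.1% in B cells, and neutrophils had the lowest share at 3.1% to 6.18%. Depth did not follow this order: the median was 2478 to 6071 UMIs a cell in B cells, 9618 to 12869 in fibroblasts and 786 to 1464 in neutrophils.

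**Figure D1:**
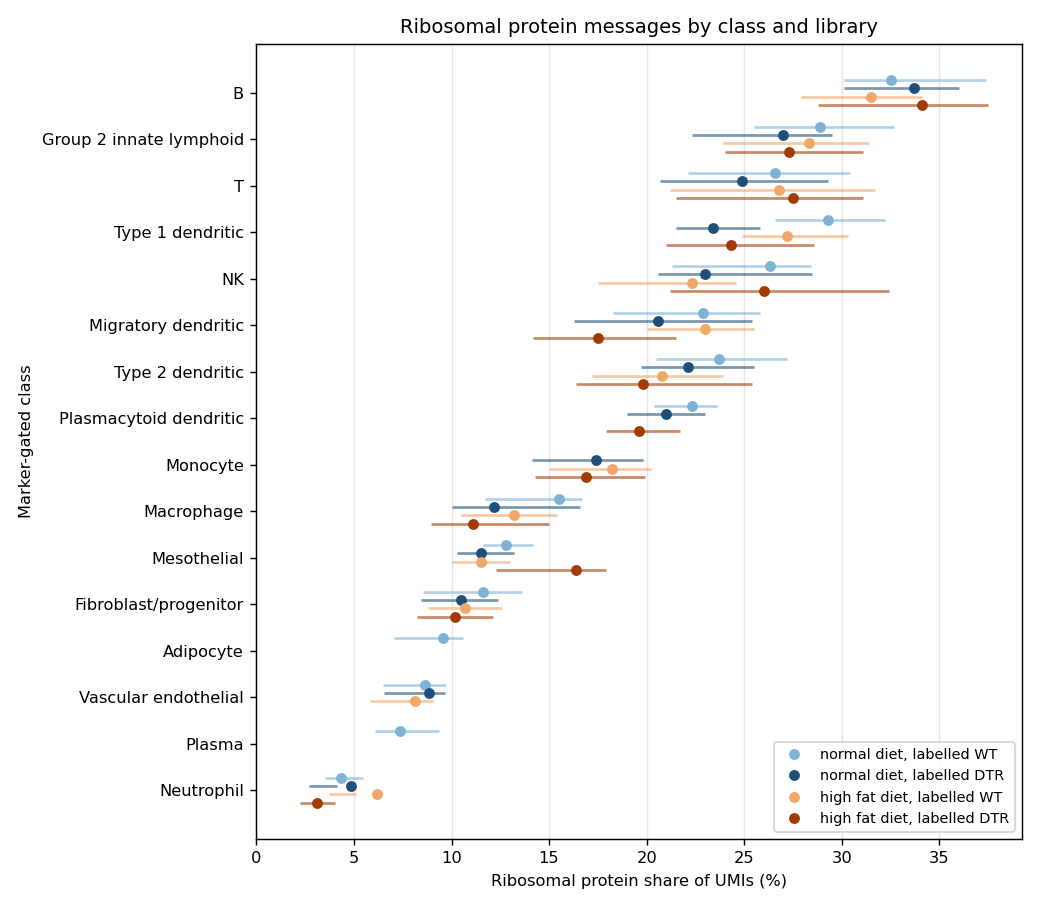
Ribosomal protein share of UMIs in percent (x axis) by marker-gated class (y axis) in the 4 libraries (colours); points are the share over the summed UMIs of a class and lines the quartiles over its cells. B cells sit between 31.5% and 34.1% in every library and neutrophils between 3.1% and 6.18%.

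For most genes the makeup of the ribosomal total differed far less than its size. Makeup was taken over 12 classes, without neutrophils, plasma cells, plasmacytoid dendritic cells and adipocytes. In these 12 the ribosomal share ran from 8.14% to 34.1%. Each gene's share of ribosomal UMIs was averaged over libraries and set against the median of 12 classes, for the 79 genes with at least 200 UMIs in every class. The range between the highest and the lowest class had a median of 0.55 on the log2 scale, and 70 of the 79 genes stayed under 1. Rpl22, Rpl27a and Rpl11 varied least, with ranges of 0.29, 0.30 and 0.32; among cells of 3000 to 10000 UMIs the range of Rpl22 was 0.69. The UMIs of large-subunit and stalk genes over those of small-subunit genes gave a ratio between 1.05 and 1.30 in every class and library, with neutrophils at the low end and fibroblasts of HFD CD169-DTR and mesothelial cells of HFD WT at the high end.

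Genes with under 200 UMIs in some class were left out of this ranking. Among them were Rps19bp1, with a range of 2.48, and Rpl7l1, with 2.05, both with their highest share in macrophages. Of the 79 ranked genes the widest range belonged to Rpl22l1, the paralog of Rpl22 that can replace it in the ribosome and acts in splicing. Its share of ribosomal UMIs was highest in fibroblasts and lowest in migratory dendritic cells, a range of 2.00. In fibroblasts it stood at 521, 534, 491 and 419 CPM in ND WT, ND CD169-DTR, HFD WT and HFD CD169-DTR, close to the 665, 545, 645 and 528 CPM of Rpl22. In migratory dendritic cells Rpl22l1 was at 199, 277, 248 and 228 CPM while Rpl22 was at 1236, 1129, 1253 and 986 CPM. Fibroblasts therefore held the 2 paralogs at nearly equal levels, and migratory dendritic cells several times more Rpl22. NK cells had 676, 712, 702 and 646 CPM of Rpl22l1, more than fibroblasts, within a larger ribosomal share (22.3% to 26.3% against 10.2% to 11.6%).

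Rpsa was next, with a range of 1.63 between migratory dendritic cells and vascular endothelium. It took 3.97%, 3.62%, 3.95% and 3.97% of ribosomal UMIs in migratory dendritic cells, at 9079, 7462, 9075 and 6964 CPM, and 1.16%, 1.31% and 1.30% in the endothelial cells of ND WT, ND CD169-DTR and HFD WT, at 999.7, 1153 and 1054 CPM. All 4 libraries placed migratory dendritic cells highest for Rpsa and for Rps19, a small-subunit protein whose loss causes Diamond-Blackfan anaemia in people. Rps19 took 2.35%, 2.46%, 2.49% and 2.77% of ribosomal UMIs there against 1.13%, 1.16%, 1.10% and 1.34% in NK cells. In neither gene did the libraries of the highest and lowest class overlap.

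Rpl36al, a paralog of Rpl36a, had its highest share in monocytes, at 492, 473 and 467 CPM in ND CD169-DTR, HFD WT and HFD CD169-DTR, and lay at 137, 161, 157 and 178 CPM in fibroblasts. Rps27l, the paralog of Rps27 that p53 induces, had under 200 UMIs in some class and was left out of the ranking, with a range of 3.34. It was at 966, 976, 968 and 982 CPM in migratory dendritic cells, at 183, 234, 198 and 262 CPM in fibroblasts and at 118, 138, 131 and 111 CPM in group 2 innate lymphoid cells. The level in migratory dendritic cells was thus nearly the same in the 4 libraries, and no other class with at least 20 cells reached it. Type 2 dendritic cells came next with 721 CPM in ND WT and 636 in HFD WT, and had 451 and 302 in ND and HFD CD169-DTR. Rpl41 had a range of 1.12, with its highest share in vascular endothelium.

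**Figure D2:**
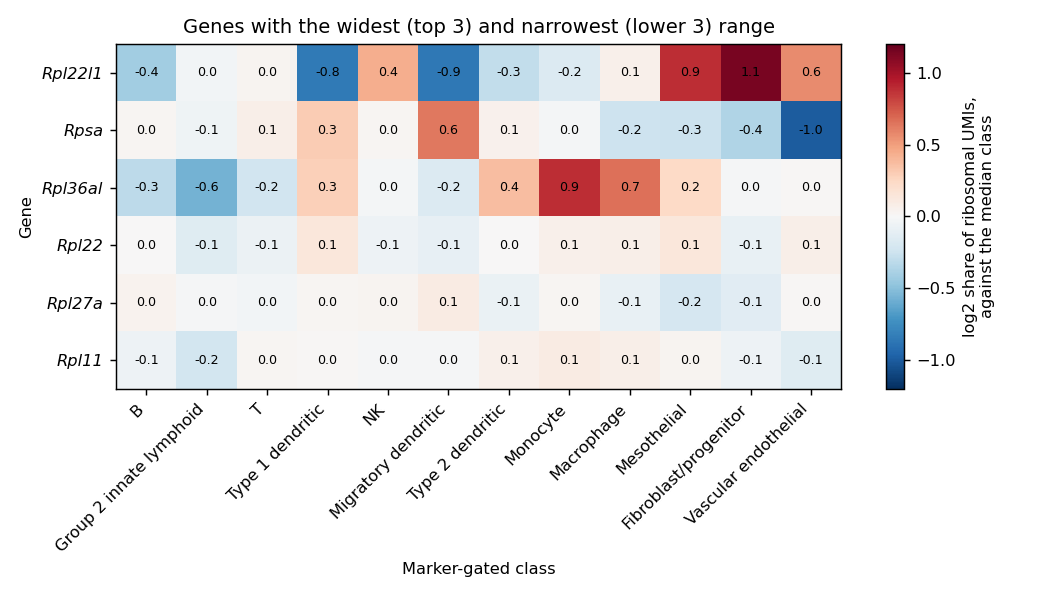
Log2 share of ribosomal UMIs against the median class (colour and printed value) for the 3 genes with the widest range and the 3 with the narrowest of the 79 ranked (y axis) in 12 marker-gated classes (x axis), averaged over libraries. The Rpl22l1 row spans 2.00 and the Rpl22 row 0.29.

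Between libraries few structural genes passed the fold outside macrophages and neutrophils. The ratio of labelled CD169-DTR over WT, and of HFD over ND, was taken in the 28 pairs of a contrast and a class with at least 50 cells in both libraries. Without neutrophils, 21 of 26 pairs had 0 structural genes past 1.5-fold, and 20 of 2002 ratios passed it, where 22.3% of the ratios of all genes in these pairs did. Without macrophages too, 2 of 1694 did, Rpl35 in NK cells and Rpl4 in type 1 dendritic cells, both lower, beside 20.9% over all genes. All genes took in any gene with at least 50 UMIs in both libraries together. The structural gene with the fewest UMIs over all kept cells, Rpl13a, had 31446. Counting error is wider at low counts, and the share of all genes was not matched for level, here or below. TMM scaling, by trimmed means, raised the 2 to 31 and the 20 to 109, so the counts depend on the scaling.

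In fibroblasts on normal diet, labelled CD169-DTR over WT, 1 of 83 measured genes was past the fold, the paralog Rpl7l1 (0 without the shared barcodes), where 23.8% of all 11005 genes were (15.3% higher, 8.51% lower). The median of the 83 was -0.10 on the log2 scale beside 0.10 over all genes, and the ribosomal share was 10.5% against 11.6%, a log2 ratio of -0.13 (-0.14 to -0.13). Rps21, Rps29 and Rpl10 were the lowest of the family, Rps21 at -0.49 and Rps29 at -0.42. On high fat diet, 2 of 83 genes were past the fold, Rpl7l1 and Rps19bp1, both higher, where 41.0% of 12497 genes were (33.3% higher, 7.64% lower). The median of the 83 was -0.07 beside 0.33 over all genes, and the share was 10.2% against 10.7%, a log2 ratio of -0.08 (-0.08 to -0.07). Rpl41, which encodes the shortest ribosomal protein, was at 0.54, just inside 1.5-fold, with 1873 CPM as its HFD WT level and 2715 in HFD CD169-DTR; Rps4x, the X-linked small-subunit protein, was lowest at -0.53. Among fibroblasts of 3000 to 10000 UMIs the share ratio on high fat diet turned to 0.04 and Rpl41 was at 0.77, and TMM scaling (which shifts every log2 ratio of this pair by 0.31) took the count to 16, with 2 higher and 14 lower.

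For diet, the fibroblasts of WT had 0 of 83 genes past the fold against 18.6% of 11088 genes, and those of CD169-DTR had 2, again Rpl7l1 and Rps19bp1, against 31.4% of 12449. Rps27, Rps15 and Rps29 were the lowest in WT, Rps27 at -0.53, Rps15 at -0.50 and Rps29 at -0.45. Rps27, a small-subunit protein, was lower in every comparison of fibroblasts without passing the fold: its level was 1466 CPM in ND WT, 1104 in ND CD169-DTR, 1014 in HFD WT and 833 in HFD CD169-DTR. Vascular endothelial cells, which had only 15 cells in HFD CD169-DTR and so no value there, gave a share ratio of 0.03 for labels on normal diet, with 1 of 83 genes past the fold (Rps19bp1, 49 and 34 UMIs) against 11.6% of genes, and of -0.09 for diet in WT, with 0 of 83 against 11.6%.

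For labels, macrophages had the largest log2 ratio of the share among the pairs with at least 50 cells in both libraries, on both diets; on high fat diet the mean of cells gave -0.11 for them and 0.35 for NK cells. The share was 15.5% in ND WT, 12.2% in ND CD169-DTR, 13.2% in HFD WT and 11.1% in HFD CD169-DTR. On normal diet the log2 ratio of the share for labels was -0.34 (-0.35 to -0.33), with 13 genes lower and 2 higher past the fold, where 9.45% and 32.3% of 7114 genes were and 41.7% in either direction. The 13 were Rpl35a, Rpl36a, Rpl37a, Rpl39, Rplp2, Rps14, Rps21, Rps24, Rps27, Rps27rt, Rps28, Rps29 and Rps4x. Rps29 stood at 5083 CPM in ND WT, 2555 in ND CD169-DTR, 3364 in HFD WT and 2259.8 in HFD CD169-DTR, Rpl37a at 3017, 1589.9, 1854 and 1361, and Rps27 at 1688, 907, 1091 and 663. ND WT was highest and HFD CD169-DTR lowest for all 3.

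Without the shared barcodes the macrophage share on normal diet was 15.8% against 14%, a log2 ratio of -0.18, and 2 genes were lower past the fold, Rpl37a and Rps29, where the rest of the 13 no longer passed. Keeping each shared barcode in the library where it had the most UMIs left the ratio at -0.35 and the count of lower genes at 13. The count also grew to 34 lower and 2 higher when cells were classed by cluster and to 44 lower and 2 higher under TMM scaling, which shifts this pair by 0.27. Other values moved with these libraries: among macrophages the median depth was 7820.0, 13974, 10271 and 11780.5 UMIs in ND WT, ND CD169-DTR, HFD WT and HFD CD169-DTR, the summed level of the dissociation-response genes 1038, 3290.1, 1977 and 4017 CPM, and the summed level of the 6 monocyte markers 3569.9, 1208, 1128 and 983 CPM, with 2 or 3 of them found in at least 25% of cells. The 6 markers of macrophages were all found at that share in every library, at 5393, 4608, 9820.3 and 5354 CPM. The part of these in the ribosomal values was not tested.

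On high fat diet the macrophage share ratio for labels was -0.26 (-0.26 to -0.25), with 2 genes higher (Rpl7l1, Rps19bp1) and 4 lower (Rps21, Rps24, Rps27, Rps27rt) against 35.3% of 9350 genes in either direction (27.2% higher, 8.09% lower). It was -0.25 without the shared barcodes and 0.11 among cells of 3000 to 10000 UMIs, where 3 genes were higher and 0 lower. TMM scaling gave 34 lower and 2 higher, and clusters 16 lower and 2 higher. For diet in WT the ratio was -0.22, with 2 higher and 3 lower (Rpl37a, Rps27, Rps29) against 25% of 8199 genes (15.9% higher, 9.16% lower); among cells of 3000 to 10000 UMIs 8 were lower and 1 higher. For diet in CD169-DTR it was -0.14, with 0 of 83 past the fold against 12.4% of 8880 genes; without the shared barcodes it was -0.32, with 9 lower and 1 higher, and among cells of 3000 to 10000 UMIs it was 0.02. The depth window held 146 and 209 cells of the pair for labels on high fat diet, fewer than were outside it, and the sign of the share ratio there was the opposite of that over all cells.

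**Figure D3:**
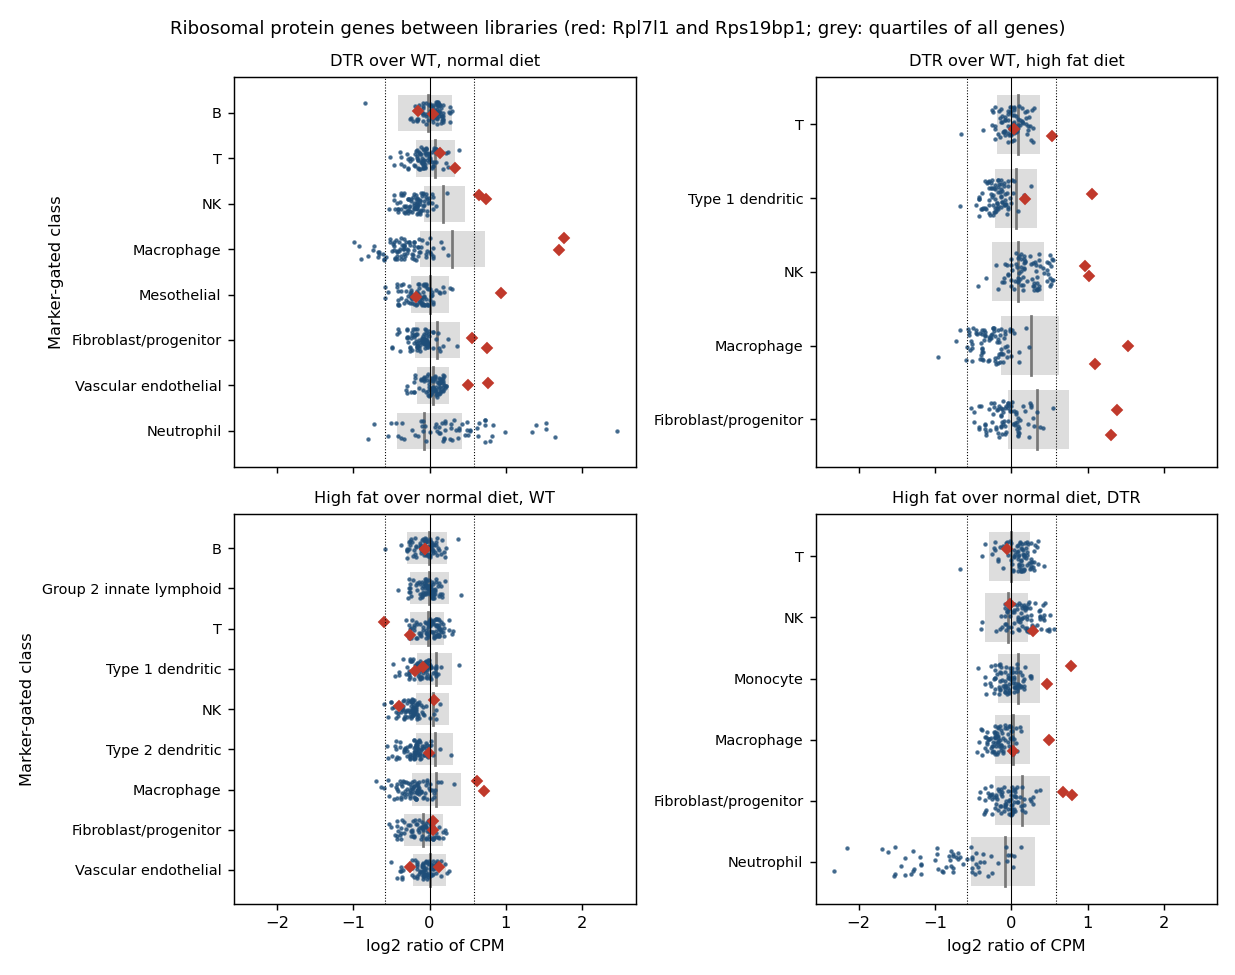
Log2 ratio of CPM between libraries (x axis) for every measured ribosomal gene (points) by marker-gated class (y axis) in the 4 comparisons; red diamonds are Rpl7l1 and Rps19bp1, grey bars the quartiles and grey ticks the median of all genes, and dotted lines 1.5-fold. Most points lie inside the dotted lines outside macrophages and neutrophils, and both red diamonds lie to the right of them in fibroblasts for labels on high fat diet, where Rpl7l1 reaches 1.38.

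The 2 genes that stood out were not structural. Rpl7l1, a relative of Rpl7 that acts in assembly of the large subunit, lies at chr17:46773907-46782672 (mm10, GENCODE M21, minus strand). In fibroblasts Rpl7l1 stood at 45 CPM in ND WT, 75.7 in ND CD169-DTR, 46.2 in HFD WT and 120.1 in HFD CD169-DTR (458, 1078, 919 and 4759 UMIs). Both libraries labelled CD169-DTR were above both labelled WT. The log2 ratio for labels was 0.75 (0.59 to 0.91) on normal diet and 1.38 (1.28 to 1.48) on high fat diet, and the ratio for diet was 0.04 (-0.13 to 0.20) in WT and 0.67 (0.57 to 0.76) in CD169-DTR. Rpl7 itself was at 1378, 1316, 1369 and 1289.8 CPM. Among fibroblasts of 3000 to 10000 UMIs the ratios for labels were 0.29 and 0.35, neither past the fold, and without the shared barcodes the one on normal diet was 0.49.

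In macrophages Rpl7l1 was at 47.3, 160.2, 77.5 and 225 CPM, so HFD CD169-DTR was highest and ND WT lowest. The ratio for labels was 1.76 (1.38 to 2.16) on normal diet and 1.53 (1.39 to 1.68) on high fat diet, 1.60 and 1.54 without the shared barcodes, and 1.63 on high fat diet among cells of 3000 to 10000 UMIs. Rpl7 was at 1682, 1246, 1321 and 1095 CPM in the same cells, in the opposite order. In NK cells Rpl7l1 was at 54.6, 85.7, 41.5 and 84.3 CPM (48, 160, 35 and 65 UMIs), with ratios for labels of 0.65 (0.18 to 1.15) and 1.02 (0.41 to 1.66). NK cells had 2 of 83 genes past the fold on normal diet against 19.7% of 5902 (17.1% higher, 2.63% lower), and 2 on high fat diet against 26.6% of 4324 (16.8% higher, 9.83% lower), and in both they were Rpl7l1 and Rps19bp1. Under TMM scaling 0 were higher and 4 lower on normal diet, and 2 higher and 1 lower on high fat diet.

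Rps19bp1, which encodes a partner of Rps19 also known as a regulator of Sirt1, lies at chr15:80260615-80264315 (mm10, GENCODE M21, minus strand). Rps19bp1 followed a like order in fibroblasts, at 23.7, 34.6, 24.3 and 59.7 CPM, with ratios for labels of 0.55 (0.32 to 0.78) on normal diet and 1.30 (1.15 to 1.44) on high fat diet; among cells of 3000 to 10000 UMIs these were 0.15 and 0.70, and without the shared barcodes 0.27 and 1.27. In macrophages Rps19bp1 was at 26.9, 87.5, 41.5 and 88.6 CPM, with ratios of 1.70 (1.2 to 2.24) and 1.09 (0.88 to 1.31), the first being 1.64 without the shared barcodes. In NK cells it was at 30.7, 51.4, 32.0 and 62.3 CPM. In all 3 classes both libraries labelled CD169-DTR lay above both labelled WT. Fibroblasts of the 4 libraries had median depths of 9618, 12186, 11167 and 12869 UMIs, and the part of depth in these ratios was not tested beyond the depth window.

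**Figure D4:**
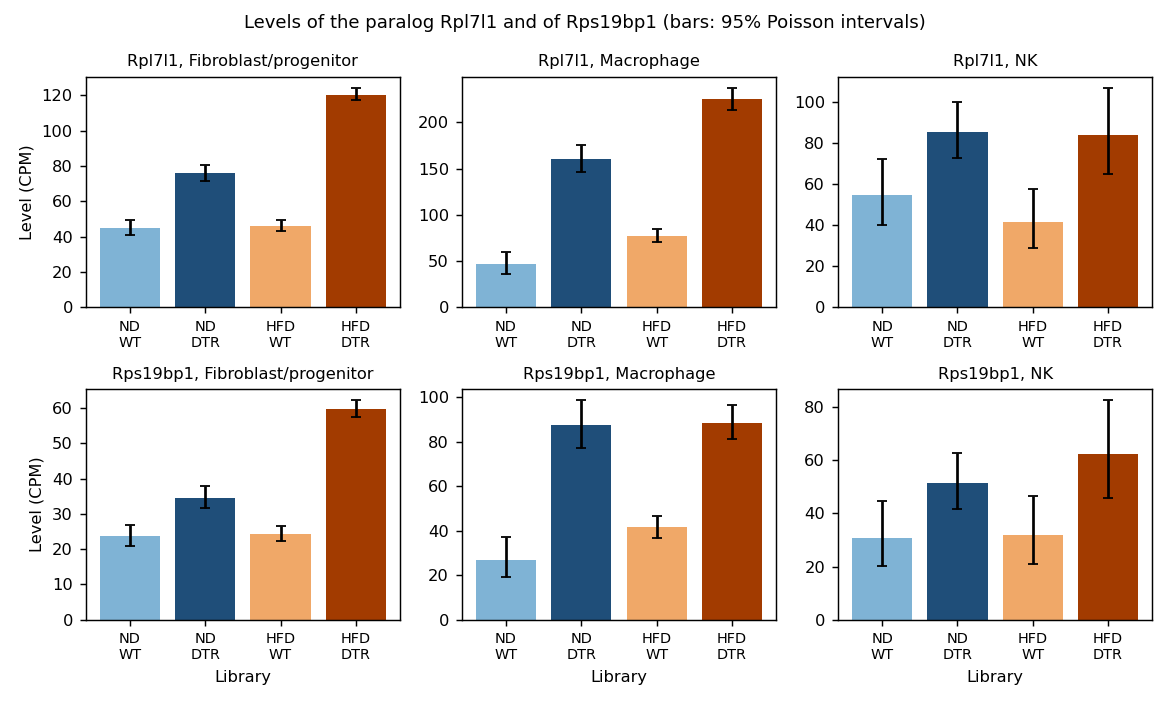
Level in CPM (y axes, from 0) of Rpl7l1 (upper row) and Rps19bp1 (lower row) in the 4 libraries (x axes) in fibroblasts, macrophages and NK cells; error bars are 95% Poisson intervals. In each panel both libraries labelled CD169-DTR are above both labelled WT, as in fibroblasts, where Rpl7l1 reads 45, 75.7, 46.2 and 120.1 CPM.

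Outside these classes few genes passed the fold. T cells had 0 of 83 for labels on normal diet against 17.2% of genes, and 1 on high fat diet (Rps27l, lower) against 21.5%; for diet they had 1 in WT (Rps19bp1, lower) against 13.1% and 1 of 82 in CD169-DTR (Rps27l, lower) against 16.6%. B cells had 1 for labels on normal diet, Rps27l at -0.85, against 28.2%, and 0 for diet in WT against 16.4%. Mesothelial cells had 1 (Rps19bp1, higher) against 16.6%, monocytes 1 for diet in CD169-DTR (Rps19bp1, higher) against 18.6%, and type 1 dendritic cells 2 for labels on high fat diet (Rpl7l1 higher, Rpl4 lower) against 18.5%. Diet in WT gave 0 in type 1 dendritic cells against 12.5%, 0 of 82 in type 2 dendritic cells against 13.2% and 0 of 81 in group 2 innate lymphoid cells against 15.9%, and 1 in NK cells (Rpl35, lower) against 9.57%. Diet in CD169-DTR gave 0 in NK cells against 18%.

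Neutrophils, with 37 to 83 cells a library and a median of 786 to 1464 UMIs a cell, gave unstable values. The share for labels on normal diet was 4.87% against 4.35%, with 17 genes higher and 2 lower of 65 measured, where 33.5% of 692 genes passed the fold (19.4% higher, 14.2% lower). Clusters gave 44 higher and 0 lower of 72 for that pair, and a share ratio of 0.57 in place of 0.16. For diet in CD169-DTR it was 3.1% against 4.87%, a log2 ratio of -0.65 (-0.73 to -0.58), with 38 of 63 genes lower against 23.4% of 619 genes (35.1% in either direction). With a minimum of 200 UMIs only 1 gene was past the fold in each of these pairs. Classing cells by cluster reversed that ratio to 0.24, and with it Rplp0 to 0.09, Rplp1 to 0.64 and Rpsa to 0.98. Red cell genes summed to 18264 CPM in neutrophils of ND CD169-DTR and to 0 in those of HFD CD169-DTR, and their part was not tested.

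Shorter structural genes had lower ratios in both comparisons that used the ND WT library. Across the 77 structural genes, Spearman's rho of the log2 ratio with coding length (principal transcript, GENCODE M21, 75 to 1257 bases) was 0.34 in fibroblasts, 0.60 in macrophages, 0.72 in vascular endothelium, 0.71 in T cells, 0.64 in B cells, 0.46 in NK cells and 0.67 in mesothelial cells for labels on normal diet. It was 0.42 to 0.68 in the 9 classes measured for diet in WT, with 0.67 in fibroblasts. On high fat diet the rho for labels was -0.09 in fibroblasts, 0.31 in macrophages, 0.02 in T cells and 0.27 in NK cells, and for diet in CD169-DTR it lay between -0.05 and 0.26. In macrophages on normal diet the 25 shortest genes (up to 399 bases) had a median log2 ratio of -0.52 and the 25 longest (from 582 bases) of -0.20; for diet in fibroblasts of WT these were -0.31 and 0.02.

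Without the shared barcodes the rho for labels on normal diet was 0.65 in macrophages and 0.29 in fibroblasts. Among cells of 3000 to 10000 UMIs it was 0.62 in macrophages and -0.01 in fibroblasts, while for diet in WT fibroblasts it was 0.63. The genes are not independent replicates, both comparisons with the larger rho share the ND WT library, and the points share library, depth and base composition, so this is a description.

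**Figure D5:**
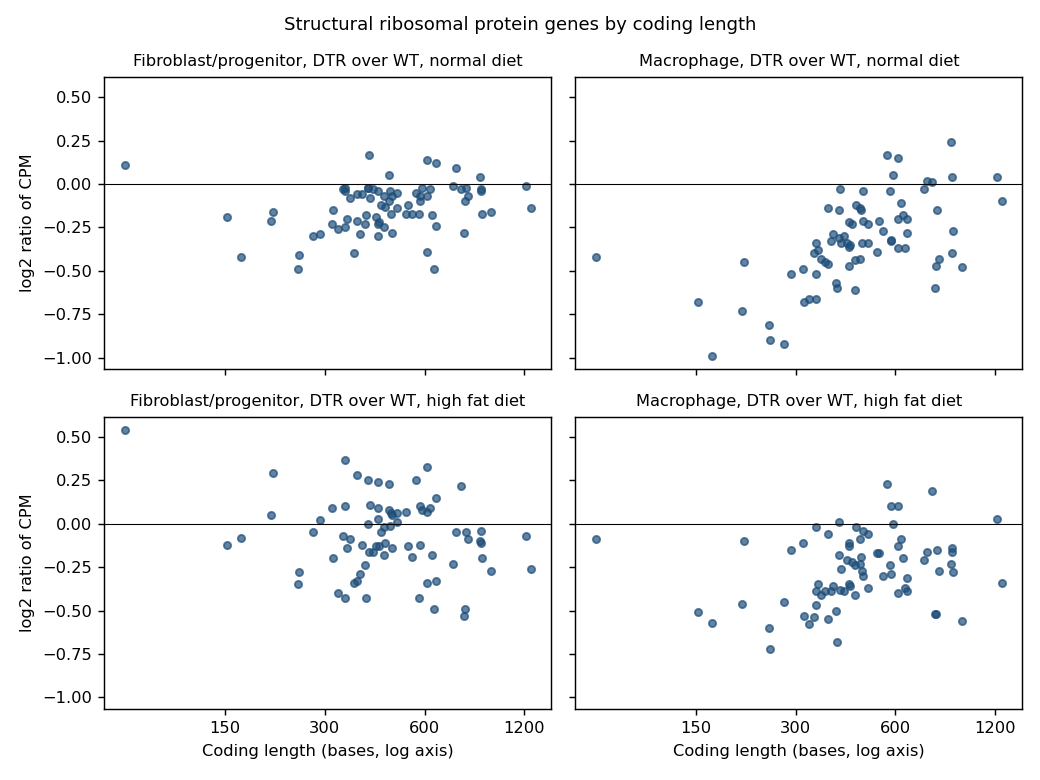
Log2 ratio of CPM, labelled CD169-DTR over WT (y axes), of the 77 structural genes by coding length in bases (x axes, log scale) in fibroblasts and macrophages on normal diet (upper row) and high fat diet (lower row). The cloud rises to the right on normal diet in macrophages (rho 0.60) and is flat in fibroblasts on high fat diet (rho -0.09).

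Other genes of the pathway are given beside the share of all genes past the fold. Here and above that share was taken over all classed cells without TMM scaling. It does not apply to counts under TMM scaling, by clusters, in the depth window or without the shared barcodes. Of 30 ribosome biogenesis genes, 13 were higher past the fold and 0 lower in fibroblasts for labels on normal diet (median 0.50, all genes 0.10), where 15.3% of all genes were higher, and 15 and 0 on high fat diet (median 0.58, all genes 0.33), where 33.3% were. Nop2, a methyltransferase of large-subunit RNA, was at 11.1 CPM in ND WT, 24.3 in ND CD169-DTR, 10.6 in HFD WT and 26.8 in HFD CD169-DTR, both libraries labelled CD169-DTR being above both labelled WT. Rrp12, a processing factor, was at 8.65, 19.9, 6.49 and 12.3 CPM in the same order, and Nop56, a core protein of methylation-guide particles, at 62.5, 93.0, 45.3 and 94. Its partner Nop58 went the other way, at 359, 246, 246 and 178 CPM, as did Sbds, which frees the large subunit for joining, at 116, 91.3, 115 and 93.7. Among fibroblasts of 3000 to 10000 UMIs the counts were 9 higher and 1 lower of 29 on normal diet and 7 and 2 of 29 on high fat diet (median 0.12); TMM scaling gave 9 and 1, and 7 and 2, of 30, and 9 were higher without the shared barcodes on normal diet.

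In macrophages 18 of 29 biogenesis genes were higher and 0 lower for labels on normal diet (median 0.76, all genes 0.30), where 32.3% of all genes were higher, and 11 of 30 and 0 on high fat diet (median 0.53, all genes 0.25), where 27.2% were. Shared barcodes held 60.8% of the macrophage UMIs of ND CD169-DTR. These macrophage counts are for all classed cells, and those without shared barcodes, under TMM scaling or in the depth window are not given here. In NK cells the count was 4 of 27 on normal diet (median 0.14, all genes 0.17), near the 17.1% of all genes, and 13 of 22 on high fat diet (median 0.70, all genes 0.08), where 16.8% of all genes were higher. For diet in WT, 0 of 30 were higher and 2 lower in fibroblasts (median -0.26, all genes -0.08), where 18.6% of all genes passed the fold in either direction. In T cells on normal diet the count of 9 of 22 higher (17.2% of all genes past the fold in either direction) became 1 of 21 without the shared barcodes. For labels on normal diet, B cells had 2 higher and 7 lower of 27 (median -0.28), beside 28.2% of all genes in either direction. Vascular endothelial cells had 2 higher and 1 lower of 22 there, beside 11.6%, and mesothelial cells 5 and 0 of 18, beside 16.6%. On high fat diet T cells had 0 and 1 of 23, beside 21.5%. Type 1 dendritic cells had 3 and 2 of 18 there, beside 18.5%.

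Mitochondrial ribosomal proteins, which build the separate ribosome of that organelle, differed by class. In fibroblasts 14 of 77 were higher and 0 lower for labels on normal diet (median 0.31, all genes 0.10), near the 15.3% of all genes, and 7 were higher without the shared barcodes, as were 7 of 70 among cells of 3000 to 10000 UMIs. On high fat diet 38 were higher and 0 lower (median 0.58, all genes 0.33), where 33.3% of all genes were higher; this count was 20 under TMM scaling, and 11 of 74 with 1 lower among cells of 3000 to 10000 UMIs. Mrpl45 was at 15.6, 23, 15.9 and 45.8 CPM in ND WT, ND CD169-DTR, HFD WT and HFD CD169-DTR. In macrophages 47 of 74 were higher on normal diet, beside 32.3% of all genes (32 of 65 without the shared barcodes), and 34 of 77 on high fat diet, beside 27.2%, with 0 lower. On normal diet vascular endothelial cells had 2 of 69 higher and 0 lower, beside 11.6% of all genes past the fold in either direction. B cells had 4 higher and 8 lower of 64 there, beside 28.2%. The 23 other translation genes known or thought to carry a TOP tract had medians for labels of 0.02 and 0.09 in fibroblasts and -0.03 and -0.09 in macrophages, between those of the 83 ribosomal genes (-0.10 and -0.07, and -0.33 and -0.26) and of all genes (0.10 and 0.33, and 0.30 and 0.25); these differences were not tested. On normal diet the median of these genes lay outside the other 2 in T cells (0.13), vascular endothelium (0.08) and neutrophils (0.44, 8 measured). On high fat diet it did so in NK cells (0.36) and type 1 dendritic cells (-0.21), all for labels. For labels it lay between them in NK, mesothelial and B cells on normal diet and T cells on high fat diet. Eef1a1, the main elongation factor, was at 3593, 3065, 4183 and 2759 CPM in fibroblasts.

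Of 12 measured TOR and growth control genes, 0 passed the fold for labels in fibroblasts on normal diet and 3 were higher on high fat diet (median 0.20 in both), beside 15.3% and 33.3% of all genes higher and all-gene medians of 0.10 and 0.33. Mtor was at 11.6, 15.7, 10.9 and 18.4 CPM, Rps6kb2, an S6 kinase, at 6.98, 8.92, 9.05 and 15.3, and Myc, an activator of ribosome production, at 199, 213, 199 and 145. Of 8 p53 targets, 7 were higher for labels in fibroblasts on high fat diet (median 1.00, beside 0.33 and 33.3% of all genes) and 2 on normal diet (median 0.15, beside 0.10 and 15.3%), and 0 were lower in either. Bbc3, which promotes cell death, was at 5.50, 7.66, 5.43 and 29.0 CPM, Eda2r, a TNF receptor family member, at 2.16, 5.27, 2.56 and 8.20, and Phlda3, an inhibitor of Akt, at 53.8, 51.1, 78.8 and 237. HFD CD169-DTR was highest for these 3, while Mdm2, the ligase that ribosomal proteins can bind, was at 114, 134, 116 and 109.6 CPM. The p53 count on high fat diet was 6 of 8 without the shared barcodes, 5 of 8 under TMM scaling and 4 of 7 among cells of 3000 to 10000 UMIs. The share of all genes under those settings is not given here. The paralog Rps27l, itself known as a p53 target, had log2 ratios for labels of 0.36 and 0.41 in these fibroblasts, short of the fold. Macrophage markers in fibroblasts summed to 8.94, 13.0, 23.5 and 35.0 CPM, with 0 of 6 found in at least 25% of cells in any library. The monocyte list (Ly6c2, Plac8, Chil3, Ccr2, Fn1 and Vcan) in these fibroblasts summed to 2793, 4225, 2823 and 5496 CPM, with 2 or 3 of 6 found in at least 25% of cells. Its most often found gene was in 88.7%, 98.4%, 93.9% and 99.6% of cells and its least found in 0%, 0.364%, 0.0569% and 0.687%. That sum therefore rests on part of the list and does not measure monocytes. The migratory dendritic list summed to 114, 214, 147 and 359.8 CPM. Both sums were higher in the libraries labelled CD169-DTR, and their part in the fibroblast ratios was not tested.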

How the data were processed

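Single-cell libraries were made with the 10x Genomics 3′ v3 kit, per the labels' protocols, and their reads went through Cell Ranger 3.1.0 (mm10 build), per the submitters' processing notes. The authors deposited 1 matrix of raw UMI counts over 31053 genes for the 4 libraries together; whether libraries were brought to equal depth before they were joined is not stated in the labels. The number at the end of each barcode was mapped to a library through the order of the deposited list of libraries. There were 0 columns of other series.

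Barcodes under 300 genes or over 10% mitochondrial UMIs were dropped (9.33% to 22.5% of a library), and doublets called by Scrublet in scanpy 1.11.5 (expected share 5.4%) were removed, 0.745% to 1.29% of the rest. A cell was classed where at least 3 of the 6 markers of a class were detected and led the next class by 2. Cells were also clustered without the ribosomal genes (2000 variable genes, 30 principal components, 15 neighbours, Leiden resolution 1.5). UMIs were summed by class and library; levels are CPM of that sum, given for at least 20 cells, and ratios were taken over at least 50 cells and at least 50 UMIs in both libraries together. Shares carry Clopper-Pearson, levels Poisson and ratios conditional binomial intervals. The ratios, calls and intervals were tested on Poisson counts simulated as class sums, modelled on fibroblasts of the ND libraries. Classing and summing of cells, and spread between cells or libraries, were not part of that test. Medians of log2 ratios include every measured gene.

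The genes named were the stalk genes, Rpsa and the paralogs, the 3 highest and 3 lowest in level, those with the 6 widest and 3 narrowest ranges of makeup, and the 3 highest and 3 lowest ratios in fibroblasts, endothelium and macrophages, with 2 of each kind from the other lists; further genes were named where few passed the fold, and some that the rule takes are not reported here. Coding length, the promoter windows and the length relation were added after values were seen. The members and lists were chosen with earlier results of these data known. Alternatives covered the cell filter, doublets, the gate, clusters, depth, the scaling (TMM of edgeR 4.0.16), the count minimum, the fold and shared barcodes.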

Additional observations from a re-analysis of the deposited data

Results flagged for a closer look

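NK cells and T cells gave ribosomal shares whose log2 ratios had opposite signs in paired comparisons, with 1 library on each side; the difference between the comparisons was not tested. In NK cells the ratio for labels was -0.19 on normal diet and 0.22 on high fat diet, and the ratio for diet was -0.24 in WT and 0.17 in CD169-DTR. The share itself ran from 22.3% to 26.3% over the 4 libraries. Among NK cells of 3000 to 10000 UMIs the 4 ratios were -0.17, 0.10, -0.16 and 0.10, and as a mean of cells -0.07, 0.35, -0.24 and 0.18, with the same signs. Malat1, a nuclear RNA, was at 19986, 15140.2, 21877 and 10143 CPM in NK cells of ND WT, ND CD169-DTR, HFD WT and HFD CD169-DTR, and its part in these ratios was not tested. In T cells the ratio for labels was -0.09 on normal diet and 0.04 on high fat diet, and the latter was -0.01 as a mean of cells.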

How the results depend on the processing

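No paired analysis was possible because each group has 1 library, and no library could be left out for the same reason. Shares below are log2 ratios and counts are genes past the fold; labels means CD169-DTR over WT. The shares reported above were, for labels, -0.13 (ND) and -0.08 (HFD) in fibroblasts and -0.34 and -0.26 in macrophages, and for diet -0.11 (WT) and -0.05 (CD169-DTR) in fibroblasts and -0.22 and -0.14 in macrophages; the counts were 1, 2, 15, 6, 0, 2, 5 and 0 in the same order. The cause of the shifts was not tested.

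As a mean of cells the 8 shares were, in that order, -0.10, -0.06, -0.13, -0.11, -0.05, -0.01, -0.13 and -0.11. Among cells of 3000 to 10000 UMIs the shares that moved were 0.04 (labels, HFD), -0.03 and 0.15 (diet) in fibroblasts and -0.15, 0.11 (labels) and 0.02 (diet, CD169-DTR) in macrophages, with counts of 1 and 1 for diet in fibroblasts and of 6, 3, 9 and 3 in macrophages; here too the range of makeup of Rpl22 rose from 0.29 to 0.69. Clusters gave shares of -0.06 (labels, HFD) and -0.03 (diet, CD169-DTR) in fibroblasts and of -0.54, -0.38, -0.29 and -0.13 in macrophages, counts of 2 in fibroblasts (labels, ND) and of 36 and 18 in macrophages (labels), and in neutrophils reversed the diet ratio of CD169-DTR to 0.24, with Rplp0 at 0.09, Rplp1 at 0.64 and Rpsa at 0.98. Leaving out shared barcodes, a setting chosen after seeing the data, gave -0.12 (labels, ND) and -0.07 (diet, CD169-DTR) in fibroblasts and -0.18 (labels, ND), -0.25 and -0.32 (diet) in macrophages, with counts of 0 (labels, ND) in fibroblasts and 4 (labels, ND) and 10 (diet, CD169-DTR) in macrophages; keeping each in the library with most UMIs, chosen likewise, changed no count beyond 1.5 times, and its shares differed by at most 0.01. A share counts as moved where it lies outside the counting interval of the value above.

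The stricter cell filter gave -0.16 (labels, ND) and -0.02 (diet, CD169-DTR) in fibroblasts, -0.38 and -0.29 (labels) in macrophages, and a count of 2 in fibroblasts (labels, ND). Leaving out mitochondrial UMIs gave -0.09 (labels, HFD), -0.12 and -0.07 (diet) in fibroblasts and -0.36 and -0.28 (labels) in macrophages. Keeping doublets gave -0.15 (labels, ND) and -0.12 (diet, WT) in fibroblasts, and 1 more marker gave -0.24 in macrophages (diet, WT). TMM factors gave counts of 16 (labels, HFD) and 1 (diet, CD169-DTR) in fibroblasts and 46 and 36 (labels) in macrophages. Totals without ribosomal and mitochondrial UMIs gave 12 in macrophages (labels, HFD). The smaller fold tried gave counts of 9, 18, 15 and 10 in fibroblasts and 45, 36, 23 and 11 in macrophages, and a fold of 2 gave 0 (labels, ND; diet, CD169-DTR) in fibroblasts and 2, 2 and 0 in macrophages. A minimum of 1 UMI gave 2 (labels, ND) and 1 (diet, WT) in fibroblasts and 2 in macrophages (diet, CD169-DTR).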

Other observations

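Barcodes left out by the cell filter had a low ribosomal share. It was 1.76% to 2.42% in those with too few genes and 4.30% to 8.69% in those with too many mitochondrial UMIs, against 11.9% to 18% in the kept cells of a library. Symbols with -ps that the naming rule left out, such as Rpl10-ps3 with 7082 UMIs and Rps12-ps3 with 4295 UMIs, were measured in the kept cells too, and reads of the parent genes can fall on such copies.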
